A study of Mus musculus with 9 samples.

Results

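The level of 10 macrophage genes was followed in RNA from the left ventricle of mice. The genes are *Cd68*, *Adgre1* and *Csf1r*, carried by macrophages in general, *Ccr2*, a marker of macrophages recruited from blood monocytes, *Lgals3*, *Trem2* and *Gpnmb*, markers of lipid-associated macrophages, and *Cd163*, *Lyve1* and *Mrc1*, markers of resident macrophages. The genes are known markers selected on their levels in these same 9 libraries, so their levels are given as a description and the tests between the labels are not independent support. All 10 were found among the 52636 genes of the deposited count table and passed the filter on low counts. The table holds 9 libraries from C57BL6J mice at 16 weeks of age, 5 labelled VDAC2 WT (libraries 1 to 5) and 4 labelled VDAC2 KO (libraries 6 to 9). The KO carries floxed *Vdac2* deleted by an αMHC-Cre transgene, which acts in cardiac myocytes, so that by design macrophages and other non-myocyte cells keep the gene, and littermates with either the floxed allele or Cre alone served as WT. Between 27345052 and 44673988 reads were counted per library. Nothing in the labels states which animal a library came from, and p-values here measure the spread between libraries.

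Cardiac macrophages are of several origins. Resident macrophages settle in the heart before birth, renew themselves by division, clear dying cells and debris from myocytes, and carry scavenger receptors such as CD163, the hyaluronan receptor LYVE1 and the mannose receptor MRC1 (CD206). Injury and pressure load bring in monocytes through the chemokine receptor CCR2, and macrophages that take up much lipid and debris switch on *Trem2*, *Gpnmb* and *Lgals3*, the gene of galectin-3, whose protein is also followed as a marker of cardiac fibrosis. In whole tissue, fewer cells of a type and less RNA per cell cannot be told apart.

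*Vdac2*, the deleted gene, was read first, as a check of the labels. WT-labelled libraries 1 to 5 read 20.2, 366, 58.5, 365 and 21.3 CPM (a gene's counts per 1000000 counts of the normalized library size), and KO-labelled libraries 6 to 9 read 384, 20.5, 421 and 19.1 CPM. The mean was 166 ± 183 CPM (SD, n = 5) under the WT label and 211 ± 222 CPM (SD, n = 4) under KO, and the labels overlapped throughout. The log2 fold change, KO label minus WT label, was 0.35 (adjusted p = 0.92 by the quasi-likelihood test of edgeR), and 0.12 (adjusted p = 0.98) without library 3. *Vdac2* was thus low in libraries 1 and 5, labelled WT, and high in libraries 6 and 8, labelled KO, against those labels. Library 3, labelled WT, lay between, at 58.5 CPM. The libraries below it held 19.1 to 21.3 CPM and those above it 365 to 421 CPM. All 9 cardiomyocyte genes examined were lowest in library 3, with *Myh6* at 0.0914 and *Tnnt2* at 0.344 of their medians in the others. Whether its *Vdac2* level reflects the genotype or fewer myocyte reads was not tested. Libraries were kept under the labels they were deposited with and were never grouped by *Vdac2*, so the differences below compare labels that the deleted gene does not tell apart. Lane of the flow cell follows the label, and so do *Xist* (335 to 587 CPM under the KO label, no more than 0.152 CPM under WT) and the Y-linked *Ddx3y* (126 to 170 CPM under WT, no more than 1 count under KO). Label, lane and sex cannot be told apart.

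Library 3, labelled WT, stood apart from the rest. The summed level of 9 cardiomyocyte genes, such as *Myh6* and *Tnnt2*, was 17500 CPM in it, where the other 8 libraries held 66000 to 89700 CPM, and that of 7 fibroblast genes was 5370 CPM against 968 to 1460 CPM. Its share of counts from mitochondrially encoded genes was 9.07%, against 16.8% to 19.2%. Estimates between the labels are therefore given with and without library 3. *Myl2*, the ventricular myosin light chain, was abundant in every library, at 1980 CPM in library 3 and 8600 to 11400 CPM in the rest.

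RefSeq start sites (GRCm38.p6) were used for 7 of the 10 members. *Adgre1*, *Csf1r* and *Lyve1* were not searched, so the counts below do not cover them. The 250 bases before each start site used were searched on both strands for letters bound by factors of the macrophage lineage. These were GAGGAA for PU.1, the factor that specifies myeloid cells, TGANTCA for AP-1, CATGTG for MITF and TTGCNNAA for C/EBP. GAGGAA was found in 3 of the 7, against 23.3% of 32851 mouse promoters of the same length, TGANTCA in 2 of the 7 (6.75% of all), and CATGTG and TTGCNNAA in 1 each (12.3% and 9.56%). The 3 windows with GAGGAA are shown because they span the roles compared here, a general, a lipid-associated and a resident marker. They run 5′ to 3′ on the gene's own strand and end at the base before the start site, with every match in capitals, read as GAGGAA or its reverse complement TTCCTC, as TGANTCA, as CATGTG or its reverse complement CACATG, or as TTGCNNAA.
*Cd68* (chr11:69666171-69666420, minus strand): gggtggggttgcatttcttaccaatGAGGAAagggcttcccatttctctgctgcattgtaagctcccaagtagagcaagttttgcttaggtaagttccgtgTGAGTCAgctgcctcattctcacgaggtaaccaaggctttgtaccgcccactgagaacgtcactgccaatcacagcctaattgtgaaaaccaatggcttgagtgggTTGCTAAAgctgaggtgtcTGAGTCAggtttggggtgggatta
*Trem2* (chr17:48346151-48346400, plus strand): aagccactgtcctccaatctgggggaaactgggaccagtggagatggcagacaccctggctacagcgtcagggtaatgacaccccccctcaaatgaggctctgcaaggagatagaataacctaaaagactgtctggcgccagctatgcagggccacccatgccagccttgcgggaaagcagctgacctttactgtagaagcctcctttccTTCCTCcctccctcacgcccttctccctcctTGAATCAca
*Mrc1* (chr2:14229164-14229413, plus strand): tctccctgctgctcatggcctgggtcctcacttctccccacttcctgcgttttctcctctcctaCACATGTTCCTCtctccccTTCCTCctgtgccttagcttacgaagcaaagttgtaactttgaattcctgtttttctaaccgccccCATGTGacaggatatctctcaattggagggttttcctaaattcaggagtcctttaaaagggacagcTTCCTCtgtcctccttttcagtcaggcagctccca
Counting the last base before the start site as -1, the *Cd68* window held GAGGAA from -225, TGANTCA from -149 and -24, and TTGCNNAA from -43. In *Trem2* GAGGAA was read on the opposite strand from -40 and TGANTCA from -9. In *Mrc1* GAGGAA was read on the opposite strand from -180, -167 and -35, and CATGTG from -186, next to the first of these, and from -101. The windows of *Lgals3*, *Gpnmb*, *Ccr2* and *Cd163* held none of the 4 letter strings. A match describes these letters and is not evidence of binding.

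The members lie on 8 chromosomes of GRCm38. *Lgals3* is on chromosome 14 from 47367751 to 47386160, *Cd68* on chromosome 11 from 69664213 to 69666153, *Adgre1* on chromosome 17 from 57358691 to 57483527 and *Csf1r* on chromosome 18 from 61100598 to 61132149. *Trem2* is on chromosome 17 from 48346401 to 48354147, *Gpnmb* on chromosome 6 from 49036546 to 49070929 and *Ccr2* on chromosome 9 from 124101950 to 124113557. *Cd163* is on chromosome 6 from 124304656 to 124330527, *Lyve1* on chromosome 7 from 110850607 to 110863239 and *Mrc1* on chromosome 2 from 14229392 to 14332057. All are protein-coding. *Csf1r* shares 873 bases of span with *Hmgxb3* on the opposite strand, and since the strand setting of the counting is not given in the sources used here, reads from the overlap could be counted for either gene. *Hmgxb3* had between 601 and 1030 counts per library, against 1773 to 5333 for *Csf1r*.

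Levels of different genes were compared as CPM per kb of exon. By the median of the 9 libraries, *Mrc1* was highest at 18.1, followed by *Csf1r* at 12.4, *Adgre1* at 10.7, *Lyve1* at 8.51, *Cd68* at 8.18, *Cd163* at 5.89, *Lgals3* at 4.38, *Ccr2* at 1.63, *Trem2* at 0.751 and *Gpnmb* at 0.49 CPM per kb. The general and resident markers thus led, and the lipid-associated receptor genes came last. The ranges of neighbours in this order overlapped in each case: *Csf1r* ran from 8.68 to 16.2 and *Adgre1* from 6.01 to 13.6 CPM per kb in the 8 libraries other than 3. Within each of the 9 libraries *Mrc1* was above *Csf1r*, *Lgals3* above *Ccr2*, *Ccr2* above *Trem2* and *Trem2* above *Gpnmb*. *Csf1r* was above *Adgre1*, and *Cd163* above *Lgals3*, in every library but 3. *Adgre1* and *Lyve1*, *Lyve1* and *Cd68*, and *Cd68* and *Cd163* changed places between libraries. In library 3 the order was another one, with *Mrc1* at 60.1, *Lgals3* at 59.8, *Cd68* at 45.5 and *Ccr2* at 35.8 CPM per kb, and *Cd163* at 3.43.

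**Figure D1:**
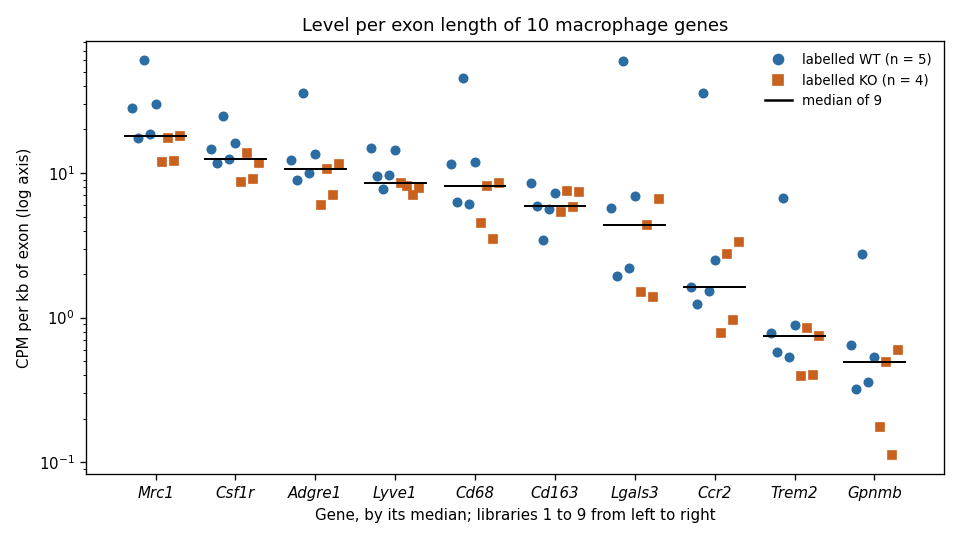
Level of the 10 members in CPM per kb of exon (vertical log axis) in libraries 1 to 9, from left to right within each gene, with circles for libraries labelled WT, squares for those labelled KO and a line for the median of 9. *Mrc1* has the highest median, 18.1, and *Gpnmb* the lowest, 0.49, and the highest circle of *Lgals3*, *Ccr2*, *Trem2* and *Gpnmb* is library 3.

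Of the general markers, *Cd68*, which encodes a lysosomal glycoprotein of phagocytes, was at 14.5, 7.97, 57.2, 7.68 and 15.1 CPM across WT-labelled libraries 1 to 5, against 5.70, 10.3, 4.41 and 10.6 CPM across KO-labelled libraries 6 to 9. Libraries 3, 5, 1, 9 and 7 were the highest, in that order, and libraries 2, 4, 6 and 8 the lowest, so the labels overlapped. The log2 fold change (KO label minus WT label) was -1.40 (standard error, SE, 0.63, adjusted p = 0.68 by the quasi-likelihood test of edgeR), and without library 3 it was -0.55 (adjusted p = 0.57).

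*Adgre1*, the gene of the F4/80 antigen, was at 39.7, 29.1, 115, 32.2 and 44.1 CPM under the WT label (libraries 1 to 5) against 19.5, 34.5, 22.7 and 37.3 CPM under the KO label (libraries 6 to 9). *Csf1r*, the receptor for the growth factors CSF1 and IL-34 on which macrophages depend, was at 84.1, 67.3, 144, 71.4 and 93.3 CPM and at 50.1, 79.2, 52.2 and 67.4 CPM. Both genes were highest in libraries 3, 5 and 1, and lowest in libraries 6 and 8. The log2 fold change was -0.87 (SE 0.43) for *Adgre1* and -0.56 (SE 0.24) for *Csf1r*, both with an adjusted p of 0.68. Without library 3 both were -0.35. Among the general markers the excess of library 3 over the median of the other 8 libraries was 6.27-fold for *Cd68*, 3.45-fold for *Adgre1* and 2.07-fold for *Csf1r*.

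*Ccr2*, the receptor that draws monocytes out of the blood, was at 11, 8.41, 242, 10.3 and 16.8 CPM under the WT label against 5.28, 18.7, 6.47 and 22.4 CPM under the KO label. Library 3, with 8969 counts of *Ccr2*, was 22.8-fold above the median of the others, the largest such excess among the 10 members. Libraries 9 and 7, labelled KO, came next, above all libraries labelled WT other than library 3, while libraries 6 and 8 of the same label were the lowest of all. Between the labels *Ccr2* had an estimated log2 fold change of -2.13 (SE 1.16, adjusted p = 0.68 by edgeR). Without library 3 its sign turned, to 0.18 (SE 0.50, adjusted p = 0.92).

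Among the lipid-associated markers, *Gpnmb* and *Lgals3* varied most between the libraries other than 3, with 5.76-fold and 5.01-fold from lowest to highest, and *Trem2* less, with 2.25-fold. *Lgals3* was at 10.6, 3.58, 111, 4.11 and 12.8 CPM under the WT label against 2.81, 8.15, 2.56 and 12.2 CPM under the KO label. Library 3 was 18.1-fold above the median of the others, with library 5 the highest and library 8 the lowest of those others. Each label held low libraries, 2 and 4 under WT and 6 and 8 under KO, as well as higher ones, so the labels overlapped. For *Lgals3* the estimate between the labels was -2.15 (SE 1.10, adjusted p = 0.68), and -0.28 (SE 0.63, adjusted p = 0.90) without library 3.

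*Trem2*, a lipid-sensing receptor of phagocytes, was at 3.87, 2.85, 33.1, 2.62 and 4.42 CPM under the WT label against 1.96, 4.17, 1.97 and 3.72 CPM under the KO label. *Gpnmb*, which encodes a transmembrane glycoprotein of lipid-laden phagocytes, was at 4.23, 2.08, 17.9, 2.32 and 3.48 CPM and at 1.14, 3.19, 0.736 and 3.90 CPM. For both genes libraries 2, 4, 6 and 8 were the lowest 4, as for *Lgals3*, and the labels overlapped. The smallest value, *Gpnmb* in library 8, rested on 25 counts, well above the 3 counts (0.0693 to 0.114 CPM) taken as the floor, which covers counting error only. Estimates between the labels were -1.67 (SE 0.83) for *Trem2* and -1.42 (SE 0.77) for *Gpnmb*, and -0.23 and -0.43 without library 3, none with an adjusted p under 0.05.

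The resident markers behaved differently from one another. *Cd163*, the haptoglobin-haemoglobin scavenger receptor, was at 46.4, 32.1, 18.7, 30.5 and 39.9 CPM under the WT label against 29.3, 40.9, 31.7 and 40.5 CPM under the KO label. It was the sole member whose lowest library was library 3, at 0.519 of the median of the others. The labels overlapped almost fully, with means of 33.5 ± 10.5 CPM (SD, n = 5) and 35.6 ± 5.98 CPM (SD, n = 4) and an estimated log2 fold change of 0.085 (SE 0.24, adjusted p = 0.90 by edgeR). It was -0.073 without library 3.

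*Lyve1* was at 43.1, 27.8, 22.7, 28.3 and 41.9 CPM under the WT label against 24.8, 23.6, 20.5 and 23.0 CPM under the KO label. In library 3 it was at 0.861 of the median of the others. Apart from library 3, every library labelled WT was above every library labelled KO, which held for *Lyve1* alone among the members. Without library 3, a separation in that direction occurred for 3.69% of all tested genes, and in either direction for 7.44%. *Lyve1* averaged 32.7 ± 9.19 CPM (SD, n = 5) under WT and 23.0 ± 1.84 CPM (SD, n = 4) under KO. The estimate for *Lyve1* was -0.51 (SE 0.20, adjusted p = 0.68 by edgeR), and -0.62 (SE 0.15, adjusted p = 0.15) without library 3. *Lyve1* is also a gene of lymphatic endothelium. Of 6 other lymphatic genes *Ccl21a* had no count in any library, and the summed level of the 6 was 120, 141, 103, 147 and 120 CPM in libraries 1 to 5 and 117, 99.3, 116 and 81.1 CPM in libraries 6 to 9. Apart from library 3 this sum was higher in every library labelled WT than in any labelled KO, and *Prox1*, the transcription factor of lymphatic endothelium, made up most of it. *Prox1* separated likewise, at 79.4, 95.7, 97.4 and 77.0 CPM in libraries 1, 2, 4 and 5 against 75.2, 65.6, 71.6 and 45.7 CPM, with 27.5 CPM in library 3. Its log2 fold change was -0.45 (adjusted p = 0.30 by edgeR) without library 3, and -0.23 (adjusted p = 0.81) with it. *Mmrn1*, a multimerin gene of lymphatic endothelium, was at 17.2, 18.1, 22.1 and 18.2 CPM in libraries 1, 2, 4 and 5 and at 17.0, 13, 17.2 and 14.5 CPM in libraries 6 to 9, so that the labels met at the level of libraries 1 and 8, with a log2 fold change of -0.30 (adjusted p = 0.32 by edgeR) without library 3 and -0.098 with it. Of the other lymphatic genes, *Flt4* (8.02 to 9.66 CPM under WT without library 3, 6.03 to 10.7 CPM under KO), *Reln* (8.63 to 14.2 against 7.93 to 14.8 CPM) and *Pdpn* (3.77 to 6.93 against 3.39 to 6.35 CPM) overlapped between the labels. In library 3 *Prox1*, *Reln* and *Mmrn1* were at 0.362, 0.352 and 0.404 of the median of the others, and *Flt4* and *Pdpn* at 1.325 and 12.1. The cardiomyocyte gene *Tnnt2* was at 0.344 there. Which cells the *Prox1* reads came from was not tested. The part of lymphatic cells in the *Lyve1* difference was not tested.

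*Mrc1* was at 179, 111, 383, 118 and 193 CPM under the WT label against 76.7, 112, 77.2 and 115 CPM under the KO label. Unlike *Cd163* and *Lyve1*, it was highest in library 3, at 3.37-fold the median of the others. Libraries 7 and 9, the higher ones labelled KO, lay at the level of libraries 2 and 4, the lower ones labelled WT. The estimate for *Mrc1* was -1.05 (SE 0.37, adjusted p = 0.68 by edgeR), and -0.66 (SE 0.21, adjusted p = 0.29) without library 3. The miRNA gene *Mir511*, inside an intron of *Mrc1* on the same strand, had 0 to 7 counts in the libraries other than 3 and 29 in library 3.

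**Figure D2:**
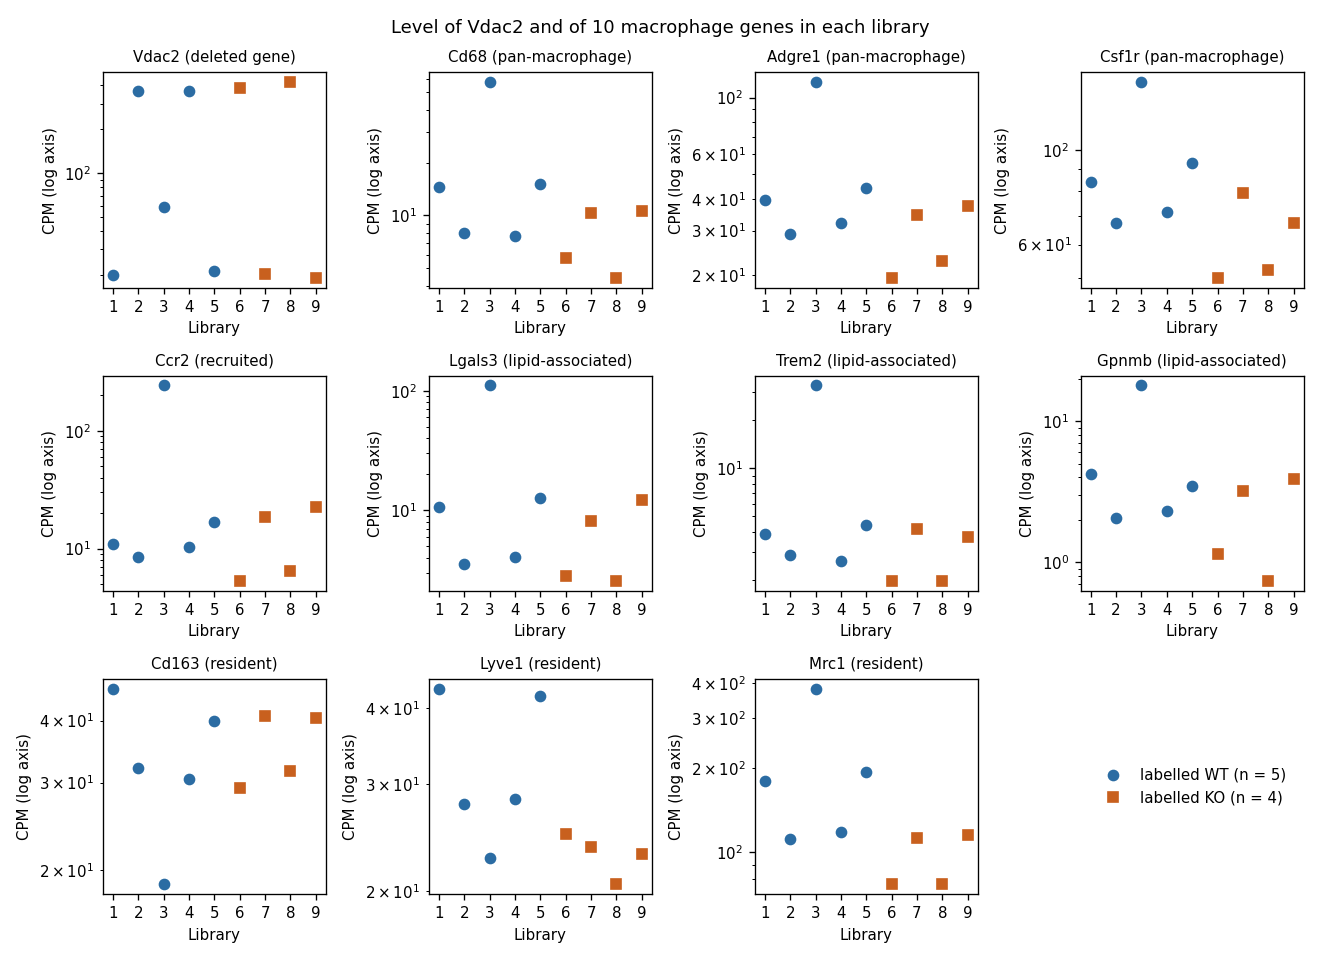
Level of *Vdac2* and of the 10 members in CPM (vertical log axis, a scale for each panel) in libraries 1 to 9, with circles for libraries labelled WT and squares for those labelled KO. Library 3 is highest for 8 members, against 37.7% of all tested genes, and lowest for *Cd163* (18.7 CPM). Libraries 7 and 9 lie above libraries 6 and 8 for each member except *Lyve1*.

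By edgeR's test of the labels, 0 of the 10 members reached an adjusted p under 0.05, against 0.0551% of the 16322 genes tested (9 genes). At an unadjusted p under 0.05 there were 3 members, *Csf1r*, *Lyve1* and *Mrc1*, all lower under the KO label, against 6.11% of all genes in either direction and 3.87% lower. That count was not stable: it went from 0 members without library 8 (3.06% of all genes) to 6 without library 2 (7.36%), with 1 without each of libraries 1, 5, 6 and 9 (5.21%, 5.12%, 4.1% and 3.52%), 2 without library 7 (5.53%) and 5 without library 4 (6.67%). The ranges of the labels stayed apart over all 9 libraries for 0 members, against 4.36% of all genes (2.06% lower under KO). Without library 3 no member passed the edgeR test either, against 0.382% of all genes, and 3 members had an unadjusted p under 0.05, against 11.8% of all genes (6.4% lower under KO). DESeq2 called 0 of the 7 members for which it gave an adjusted p, and gave none for *Lgals3*, *Trem2* and *Ccr2*. In DESeq2 6 of the 10 members had an unadjusted p under 0.05, against 4.77% of 32177 genes. The estimate was below 0 for 9 of the 10 members, against 52.7% of all genes, and the median was -1.22 over the members and -0.0185 over all genes. Without library 3 the members' median was -0.35, against 0.00304 over all genes, and 9 members were again below 0, against 49.4% of all genes. With 5 and 4 libraries a two-sided exact permutation test on the log2 scale could reach p = 0.00794 at the lowest, and it gave 0.0556 for *Mrc1*, 0.0794 for *Lyve1* and *Csf1r*, and 0.127 or more for the other members.

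**Figure D3:**
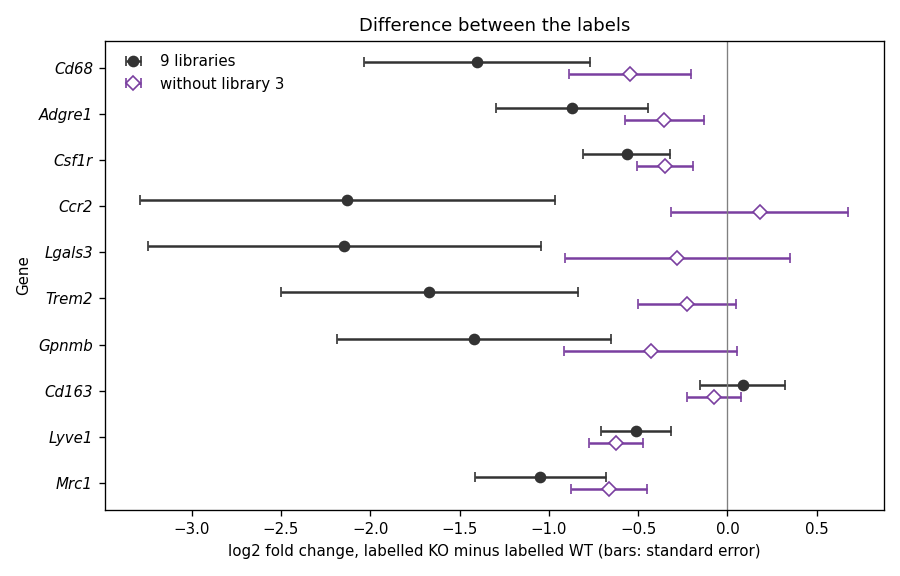
Log2 fold change of each member between the labels (labelled KO minus labelled WT, horizontal axis), with all 9 libraries (filled circles) and without library 3 (open diamonds), and bars of 1 standard error. Without library 3 the estimate of *Lgals3* goes from -2.15 to -0.28 and that of *Ccr2* from -2.13 to 0.18, while *Lyve1* goes from -0.51 to -0.62.

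The order of the libraries was shared by most members. For 6 of the 10, *Lgals3*, *Cd68*, *Adgre1*, *Trem2*, *Gpnmb* and *Ccr2*, the 4 lowest libraries were 2, 4, 6 and 8, the most common set of 4 lowest libraries over all tested genes, at 5.98%. *Csf1r* differed by library 9 in place of 4, *Mrc1* by 7 in place of 4, and *Cd163* by 3 in place of 2. For *Lyve1* the lowest 4 were libraries 3, 7, 8 and 9. The order of *Vdac2*, from high to low, was libraries 8, 6, 2, 4, 3, 5, 7, 1 and 9, so that its values above 300 CPM were in the libraries where these 6 members were lowest. That side-by-side reading is a description, and no test was made between libraries sorted by *Vdac2*.

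Differences between members inside a library do not depend on how libraries are scaled. *Ccr2* minus *Lyve1*, as a difference of log2 CPM, was 3.42 in library 3, and -1.97, -1.72, -1.46 and -1.32 in libraries 1, 2, 4 and 5 of the same label. KO-labelled libraries 6 to 9 had -2.24, -0.34, -1.66 and -0.041. Recruited against resident marker was thus highest in library 3, next in libraries 9 and 7, and lowest in library 6. *Lgals3* minus *Mrc1* was -1.79 in library 3 and between -4.96 and -3.24 in the others, with library 9 at the upper end and libraries 2 and 8 at the lower. *Cd163* minus *Cd68* was -1.61 in library 3 and between 1.41 and 2.84 in the other 8 libraries. *Lyve1* minus *Cd68* was -1.34 in library 3 against 1.11 to 2.21. Library 3 was thus lowest in both, but the sign of such a difference depends on the lengths of the genes. Per kb of exon *Cd163* was below *Cd68* in libraries 1, 2, 4, 5, 7 and 9 too (8.5 against 11.5 in library 1), and above it in libraries 6 and 8. *Lyve1* per kb was below *Cd68* in libraries 7 and 9 as well as in library 3. *Mrc1* minus *Cd163* was 4.36 in library 3, between 1.79 and 2.27 in the other libraries labelled WT, and between 1.29 and 1.51 in those labelled KO, without overlap between the labels. Of 12 pairs examined, this 1 separated the labels, and it was singled out after the values were seen. Single genes separated the labels in either direction for 4.36% of all tested genes, and the share over other pairs of genes was not computed.

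**Figure D4:**
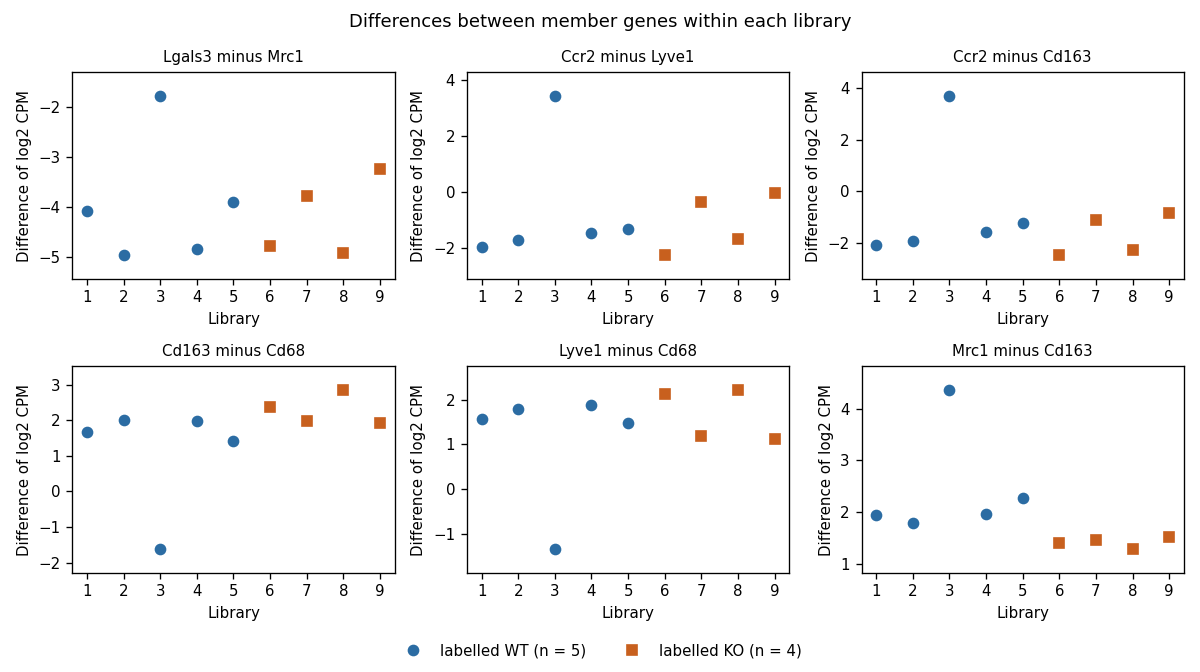
Difference of log2 CPM (vertical axis) between pairs of members within each of libraries 1 to 9, with circles for libraries labelled WT and squares for those labelled KO. Library 3 lies outside the range of the other 8 in all 6 panels, and in the last panel the squares, 1.29 to 1.51, lie below all circles.

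The members were set beside other genes of the same roles, from lists made with earlier results of these libraries known. Of 15 other general macrophage genes 0 passed the edgeR test at an adjusted p of 0.05 (5 at an unadjusted p under 0.05), 15 had an estimate below 0, and the median log2 fold change was -1.01 (-0.35 without library 3). Over all tested genes 6.11% had an unadjusted p under 0.05 by edgeR (3.87% lower under KO), and 52.7% had an estimate below 0. DESeq2 called no gene of this list, nor of the resident, recruited and lipid-associated lists that follow, but gave no adjusted p for 1 general, 5 recruited and 2 lipid-associated genes. All 15 were highest in library 3, against 37.7% of all tested genes, and 11 had libraries 2, 4, 6 and 8 as their lowest 4, against 5.98%. *Lyz2*, the lysozyme of myeloid cells and the most abundant of them, was at 848 CPM in library 3 and at 114 to 298 CPM in the others. *C1qa* and *C1qc*, complement subunits made by tissue macrophages, were at 140 and 116 CPM in library 3, 2.25-fold and 2.05-fold above the median of the others. *Fcgr1* and *Mpeg1*, an IgG receptor and a pore-forming protein of phagocytes, had the largest estimates between the labels, -1.71 and -1.42, which were -0.35 and -0.032 without library 3.

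Of 11 other resident genes 0 passed the edgeR test, and the median was -0.75 (-0.41 without library 3). At an unadjusted p under 0.05 there were 4 (6.11% of all tested genes), and 10 had an estimate below 0 (52.7% of all). Here 7 were highest in library 3 (37.7% of all), and 2 shared the set of lowest libraries above (5.98% of all). *Timd4*, which encodes the phosphatidylserine receptor TIM4 of long-lived resident macrophages, was at 0.485 CPM in library 3, 0.190 of the median of the others, and at 1.64 to 3.60 CPM in the other 8 libraries. *Folr2* (19.3 CPM) and *Cbr2* (21.0 CPM), further resident markers, lay in library 3 within the range of the others, 9.84 to 21.2 and 9.71 to 26.6 CPM. *F13a1*, *Stab1* and *Gas6* were the most abundant. *F13a1* and *Stab1*, a coagulation factor subunit and a scavenger receptor, were at 274 and 311 CPM in library 3 against 89.9 to 225 and 68.2 to 127 CPM. *Gas6*, a bridging ligand for uptake of dying cells, was at 101 CPM in library 3 and at 101 to 176 CPM in the others. *Cx3cr1* and *Vsig4* had the largest estimates between the labels, -1.23 and -0.96, which were -0.41 and -0.76 without library 3. The low *Timd4* and *Cd163* and the high *Mrc1*, *Stab1* and *Cx3cr1* in library 3 show that resident markers did not move together there.

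Of 10 other recruited genes 9 could be tested, and 0 passed the edgeR test between the labels. At an unadjusted p under 0.05 there were 2 (6.11% of all tested genes), and all 9 were highest in library 3 (37.7% of all). Their median log2 fold change was -1.58, and -0.046 without library 3. *Thbs1*, *Ccl9* and *Itgam* were the most abundant, at 307, 128 and 19.5 CPM in library 3 against ranges of 7.59 to 21.0, 9.06 to 29.7 and 1.65 to 4.82 CPM in the others. *Chil3*, a chitinase-like protein of monocytes and alternatively activated macrophages, was at 24.9 CPM in library 3 and had the largest estimate between the labels, -3.06, before *Thbs1* at -2.65. Without library 3 these were -0.045 and -0.42. Elsewhere *Chil3* was at 1.78 CPM in library 9, 1.53 CPM in library 5, 0.821 CPM in library 1 and 0.633 CPM in library 7, and at 0.0883 to 0.190 CPM in the other 4 libraries, close to the floor.

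Of 12 other lipid-associated genes 0 passed the edgeR test, and the median was -0.33 (-0.13 without library 3). At an unadjusted p under 0.05 there were 2 (6.11% of all tested genes), and 10 were highest in library 3 (37.7% of all). *Spp1*, the gene of osteopontin, was at 715 CPM in library 3 and at 7.52, 0.622, 0.533 and 3.81 CPM across libraries 1, 2, 4 and 5 of the WT label. KO-labelled libraries 6 to 9 read 0.477, 6.04, 0.177 and 7.09 CPM. *Spp1* was thus spread widely within each label even apart from library 3. Its estimate between the labels was -5.39 (adjusted p = 0.68 by edgeR), and 0.14 without library 3. That of *Mmp12*, the macrophage elastase, was -1.55, and -1.20 without library 3. The most abundant genes of the list went different ways in library 3. *Ctsd*, a lysosomal protease, was at 674 CPM against 512 to 769 CPM in the others, and *Lpl*, the lipoprotein lipase abundant in myocytes, was at 620 CPM against 2680 to 4520 CPM. *Ctsb*, another lysosomal protease, was higher, at 981 CPM against 370 to 470 CPM.

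**Figure D5:**
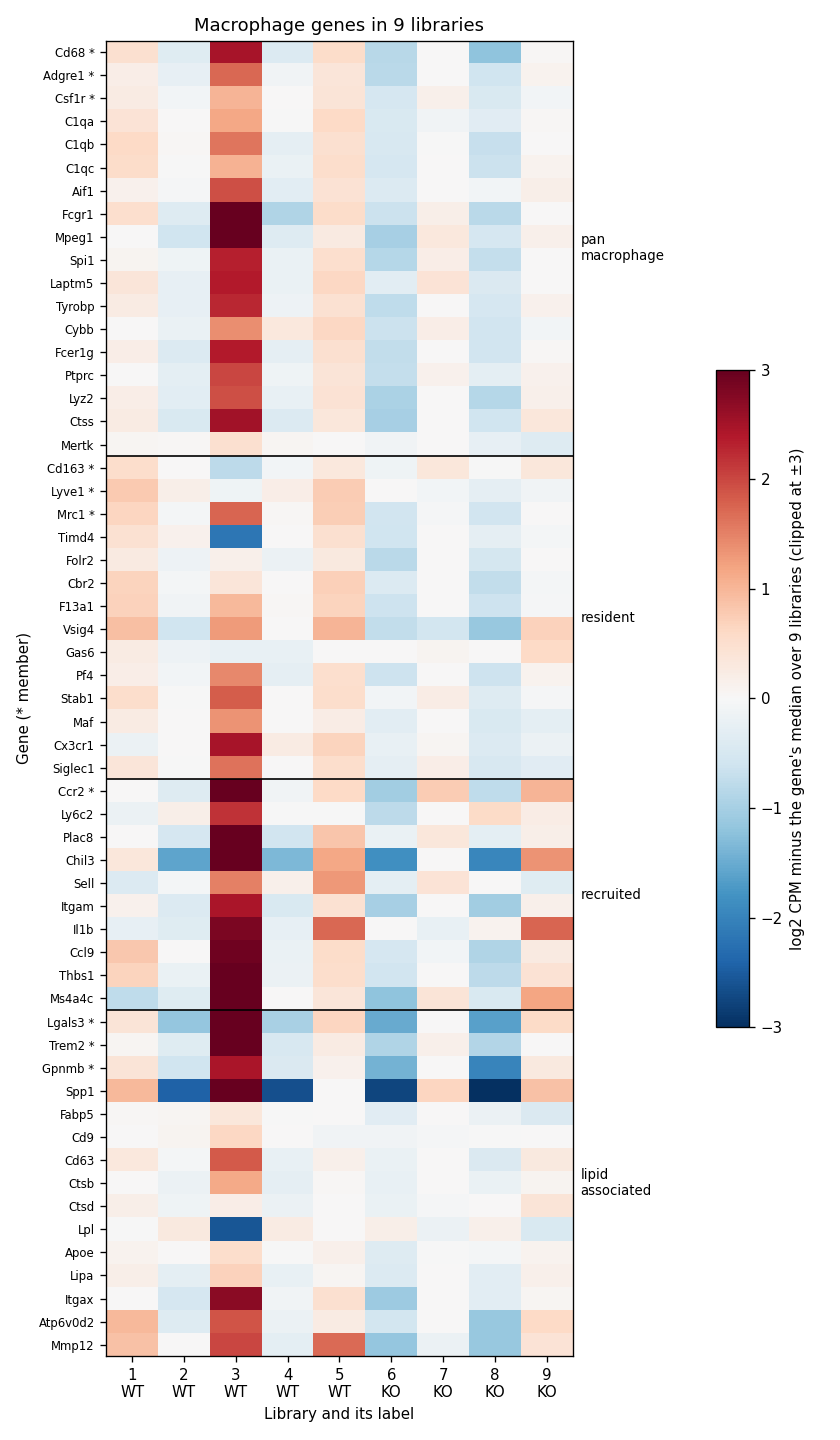
Level of the tested genes of the 4 macrophage lists (rows, members marked with an asterisk) in libraries 1 to 9 (columns, with their labels), as log2(CPM + 0.1) minus the gene's median over the 9 libraries. Colours run from blue (lower) to red (higher) and are clipped at ±3. The column of library 3 is red for nearly all recruited and general genes and blue for *Cd163*, *Timd4* and *Lpl*.

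Genes with the pattern most like each member were found as those with the smallest root-mean-square difference in log2 CPM, centred on each gene's own mean, over the 9 libraries. For *Cd68* they were *Itgam*, *Cd84* and *Ccl9*, at 0.142 to 0.165, where *Cd68* itself had a spread of 1 (SD, log2). *Adgre1* was closest to *Fcgr3*, *Irf5* and *Slc11a1* (0.0951 to 0.124, spread 0.688), and *Mrc1* to *Cd37*, *Hpgds* and *Gpr183* (0.108 to 0.121, spread 0.686), most of them genes of leukocytes. *Trem2* was closest to *Hmox1*, the haem oxygenase, at 0.154, and *Gpnmb* to *Cd68*, at 0.302. *Ccr2* was closest to the mitotic kinesin gene *Kif2c* at 0.257 and the matrix gene *Postn* at 0.327, and *Lgals3* to *Nxpe5* and *Prg4* at 0.307 and 0.317. *Cd68* and *Gpnmb* were the members with macrophage genes of the lists used here among their 3 closest, 2 each, and the other 8 had none. *Csf1r* was closest to *Rassf4*, *Serpinb8* and *Unc93b1* (0.099 to 0.109, spread 0.432). How far these distances depend on library 3 was not tested.

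Markers of other leukocytes were set beside the members. The summed level of 13 lymphocyte genes was 4.06 to 5.22 CPM under the WT label (4.37 CPM in library 3) and 5.25 to 7.17 CPM under KO, so the ranges nearly met without overlapping. Levels were low, with the most abundant of the 13, *Cd79b*, at 0.993 CPM on average. Ranges of single genes stayed apart in either direction for 4.36% of all tested genes. Of the 9 lymphocyte genes tested, 0 passed the edgeR test. At an unadjusted p under 0.05 there were 4, all higher under KO, against 6.11% of all genes in either direction. The median log2 fold change was 0.64 (0.34 without library 3). With at least 10 counts required in every library it was 0.020. The summed level of 8 neutrophil genes was 20 CPM in library 3, 32.3 CPM in library 5 and 2.38 to 6.47 CPM in the others. The defining *Ly6g* was at 0 counts in 8 of the 9 libraries. Of 6 dendritic cell genes, 4 were highest in library 3 (37.7% of all tested genes), and dendritic cells can also carry *Ccr2*. *Flt3*, *Cd209a* and *Clec9a* were at 6.42, 4.88 and 1.73 CPM there, 9.78-fold, 7.55-fold and 3.15-fold the median of the others. *Xcr1* was at 0.836 CPM, 1.87-fold, and *Siglech*, at 0.485 CPM, lay within the range of the others. The most abundant of the 6, *Zbtb46*, was lowest there, at 12.1 CPM against 14.2 to 24.4 CPM. The summed level of 5 mast cell genes was 3.72 CPM in library 3 and 4.20 to 8.91 CPM in the others. Of the 7 fibroblast genes, the matrix genes *Postn* (2510 CPM), *Col1a2* (1410 CPM) and *Col1a1* (691 CPM) made up most of the sum in library 3, against at most 316, 153 and 57 CPM in the others. *Dcn*, also a matrix gene of fibroblasts, was lowest there, at 454 CPM against 560 to 935 CPM, and *Lum* lay within the range of the others. *Pdgfra* and *Tcf21*, markers of fibroblasts that are not matrix genes, were also highest in library 3, at 149 CPM against 85.1 to 120 CPM and at 8.85 CPM against 4.30 to 7.43 CPM, so that 5 of the 7 were highest there. Besides, *Lgals3*, *Thbs1* and *Spp1* are also made by cells other than macrophages. The part of these cells in the members' levels was not tested.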

How the data were processed

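Total RNA of the left ventricle was depleted of ribosomal RNA, made into stranded libraries and read as 50-base single ends. Per the labels and the study's methods, reads were aligned to GRCm38 with STAR 2.7.2c and counted with featureCounts 1.6.3, and the authors deposited raw counts per Ensembl gene for 9 libraries, without normalization. The strand setting, annotation release and handling of multiply aligned reads are not given in the sources used here. The study removed 1 WT sample for RNA quality without naming it, so all 9 libraries were used. Columns were assigned to samples through the library numbers their titles carry. Symbols were found for 52403 of 52636 identifiers, and coordinates and exon lengths are from GENCODE M21.

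edgeR 4.0.16 (R 4.3.3) was run with filterByExpr (16322 genes), TMM and its quasi-likelihood test, and p-values were adjusted over all genes tested (Benjamini-Hochberg). A standard error is the size of the log2 fold change over the root of F. CPM uses TMM library sizes, and permutation tests and distances use log2(CPM + 0.1). The most similar pair of libraries within a label had a chi-square per degree of freedom of 7.35, so no library was counted as a copy. On simulated data for this comparison (16133 genes, 197 changed by 1.5 on the log2 scale, dispersion 0.0994), the test found 87.3% of the changed genes, none of them with a wrong sign, and 6.52% of its calls were false. In the real libraries *Lgals3*, *Ccr2* and *Trem2* had larger estimates (-2.15, -2.13 and -1.67) with SEs of 1.10, 1.16 and 0.83, and none was called. The simulated share is therefore not the power of the test for the members. DESeq2 1.42.0 was run as an alternative, beside edgeR with RLE or upper-quartile normalization, other count filters, limma 3.58.1 quality weights, mitochondrially encoded genes left out, and each library left out.

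The members, lists and motifs were chosen with earlier results of these data known. Named genes are the members, *Vdac2*, and of each other list the 3 most abundant, any past an adjusted p of 0.05 and the 2 with the largest estimate. From lists of other cell types only sums, medians and a few markers are given, and *Timd4*, *Folr2*, *Cbr2*, *Ly6g*, *Ccl21a*, *Flt4*, *Cd8a*, *Lck*, *Clec9a*, *Xcr1*, *Pdgfra*, *Tcf21*, *Col1a1*, *Lum*, *Mir511* and *Hmgxb3* were named after their values were seen.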

Additional observations from a re-analysis of the deposited data

Results flagged for a closer look

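In the libraries labelled WT, library 3 was far from the other 4 for *Trem2* and *Ccr2*. On the scale of log2 CPM its gap to the next library took up 0.797 of the whole range of the label for *Trem2* and 0.795 for *Ccr2*, above Dixon's 95% critical value of 0.71 for 5 libraries. Without it, the libraries labelled WT ran from 2.62 to 4.42 CPM for *Trem2* and from 8.41 to 16.8 CPM for *Ccr2*. Of 22 groups examined (*Vdac2* and the 10 members in each label) these 2 were marked, and chance marks about 1 group in 20.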

How the results depend on the processing

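No member was called under any of the 16 alternatives. Of 160 refits of a member, 157 had an adjusted p (lowest 0.15) and 154 of these kept direction and side of the threshold. DESeq2 gave none for *Lgals3*, *Trem2* and *Ccr2*, whose direction was kept. The exceptions were *Ccr2* without library 3 (log2 fold change 0.18; -2.51 to 0.18 over the fits that leave out 1 library) and *Cd163*, at -0.073 without library 3 and -0.10 with library quality weights (-0.073 to 0.23 over the fits that leave out 1 library). *Vdac2* ranged from -0.23 to 0.86 and was negative without KO library 6 (-0.11) or 8 (-0.23). Leaving out 1 library, the members' median ranged from -1.40 to -0.35 and that of the other recruited genes from -1.80 to -0.046, the upper ends without library 3. With quality weights these medians were -0.55 and -0.395. Over all genes, 62 were called by DESeq2, 79 with quality weights, 0 with at least 10 counts in every library, and 5 to 62 when 1 library was left out (62 without library 3), against 9. Members at an unadjusted p under 0.05 numbered 3 with at least 10 counts in every library (6.02% of all genes), 5 with quality weights (13.6%), and 0 (without library 8) to 6 (without library 2) when 1 library was left out. DESeq2 called 1 of the other ligand genes, *Ccl12*. The cause was not tested. The members' median log2 ratio of library 3 to the other libraries was 2.21, and 2.13 to 2.63 under other scalings, the highest with total counts alone, a choice made after seeing the data. No paired analysis was possible because the libraries of the labels share no replicate number.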

Other observations

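Chemokine and growth factor genes that act on monocytes and macrophages were examined as a further list of 10 ligand genes, of which 9 were tested. Of these 0 passed edgeR's test, and DESeq2 called 1. At an unadjusted p under 0.05 by edgeR there were 4, against 6.11% of all tested genes. *Ccl12*, a monocyte chemokine gene, read 3.28, 2.23, 15.6, 1.90 and 6.59 CPM across WT-labelled libraries 1 to 5, against 0.636, 1.27, 0.618 and 0.785 CPM across KO-labelled libraries 6 to 9, so that the labels did not overlap. The estimate between the labels was -2.84 on the log2 scale (SE 0.68, adjusted p = 0.61 by edgeR) and -2.09 (adjusted p = 0.083) without library 3, and DESeq2 gave an adjusted p of 0.00262. The ranges of the labels separated in the same direction for 2.06% of all tested genes. *Ccl7*, which lies with it among the monocyte chemoattractants, had a log2 fold change of -2.56 (adjusted p = 0.68), and -1.34 (adjusted p = 0.20) without library 3, with 1.18 to 2.77 CPM in the libraries labelled KO and 2.67 to 32.7 CPM in those labelled WT. *Csf1*, the growth factor for CSF1R, was at 63.5 CPM in library 3, where the others held 25.8 to 37.9 CPM, and *Cxcl12* was at 65.4 CPM, within the 54.4 to 107 CPM of the others. *Ccl2*, the main ligand of CCR2, was at 42.9 CPM in library 3, 8.82 CPM in library 5 and 1.33 to 5.88 CPM in the others. Lane and sex cannot be told apart from the label for these genes either.

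Of the 9 lymphocyte genes tested 8 had an estimate above 0, and all 4 neutrophil genes tested had one below 0, each at low counts. Over all tested genes 52.7% had an estimate below 0. The lymphocyte genes with an unadjusted p under 0.05 were *Cd8a* and *Lck*, of T cells, and *Nkg7* and *Ncr1*, of natural killer cells, and the log2 fold changes of *Cd8a* and *Lck* were 1.11 and 0.89 (adjusted p = 0.68 by edgeR for both). *Nkg7* ran from 0.0761 to 0.244 CPM under the WT label and from 0.343 to 0.471 CPM under KO, on 85 counts in all (adjusted p = 0.68 by edgeR). Ranges of the labels stayed apart in either direction for 4.36% of all tested genes. For *Ncr1* the log2 fold change was 1.33 (adjusted p = 0.68), and 1.17 without library 3, also at low counts. *S100a8*, a calcium-binding protein of neutrophils, was highest in library 5 at 7.47 CPM, and its log2 fold change was -2.03 (adjusted p = 0.68), and -1.94 (adjusted p = 0.33) without library 3. None passed the correction over all genes.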
